A study of Mus musculus with 12 samples.

Results

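The genes described here are those that the mouse array named as splicing factors, small nuclear ribonucleoprotein (snRNP) proteins, heterogeneous nuclear ribonucleoproteins (hnRNPs), RNA-binding motif proteins, RNA helicases, and cleavage and polyadenylation factors. Probes were chosen by the start of their name in the scanner files (Sfrs, Sf3, Hnrp, Snrp, Ddx, Dhx, Lsm, Prpf, Rbm, U2af, Cpsf or Cstf), which gave 100 of 20371 non-control probes, for 70 of 9093 genes with a current symbol. The files carried 2 versions of the gene names. The version in 3 files named 74 of these probes, the version in the other 9 files named 90, and 64 were named so by both. Values are features (spots) of the array, so a gene with several probes has several values.

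RNA was taken from livers of male FVB mice, 6 weeks old, that were fed or had no chow for 12, 24 or 72 hours. The mice stayed in metabolic cages and, by the sample descriptions, were warmed by an infrared lamp from 24 hours on. Each group had 3 arrays, each with Cy3-labelled RNA pooled from 2 livers against one Cy5-labelled reference of 6 fed livers. A value is therefore log2 of sample over fed reference, and the fed arrays may hold portions of the reference itself. An SD is between pools and not between mice.

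Splicing removes introns from the primary transcript. The snRNPs, rings of Sm or Lsm proteins around small nuclear RNAs with proteins particular to each snRNP, mark the ends of the intron and its branch site, and DEAD- and DEAH-box helicases use ATP to rearrange or remove RNA and protein at each step. SR proteins and hnRNPs bind the transcript and shift which sites are used, and the CPSF and CSTF complexes cut the transcript and direct its polyadenylation. Most of these genes are active in most cells, of liver and other tissues. The level of a gene in total liver RNA cannot separate fewer cells of a type from less RNA per cell.

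Markers fixed for hepatocytes were present on 5 probes, all well above background on all 12 arrays and with a median sample signal at percentile 99.9 of all probes. Replicate 2 of the 12 hour group and replicate 3 of the 24 hour group were the dimmest arrays, with a median sample signal 4.72 and 3.50 times the local background against 5.34 to 10.6 on the others. These low-signal arrays were quantified on the same day as fed replicate 1, whereas fed replicates 2 and 3 were quantified with all 72 hour arrays, and the other 12 and 24 hour arrays on a day without any fed array. Of the 100 probes, 85 were well above background on every array, 58 had a value on every array, none was saturated, and all 100 passed the filter on dim spots.

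On the median of the 100 probes, the fed arrays read 0.12, 0.06 and -0.08 on the log2 scale. The 12 hour arrays read 0.31, -0.51 and 0.18, and the 24 hour arrays 0.18, 0.31 and -0.30, with the negative value on the low-signal array each time. The 72 hour arrays read 0.06, 0.22 and 0.18. The medians of all probes, which the normalization holds near 0, were between -0.066 and 0.012. The low-signal arrays also spread more widely over all probes, with an interquartile range of 1.31 for the 12 hour and 0.67 for the 24 hour array, against 0.15 to 0.61 on the others. Replicate 2 at 12 hours gave the lowest of the 12 values for 55 of the 100 probes, against 33.1% of all probes. The brighter 50 probes had a median of -0.94 on that array and the dimmer 50 a median of -0.25, compared with -0.29 and 0.18 for all probes of the same brightness. The part of low signal or of quantification day in these values was not tested.

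**Figure D1:**
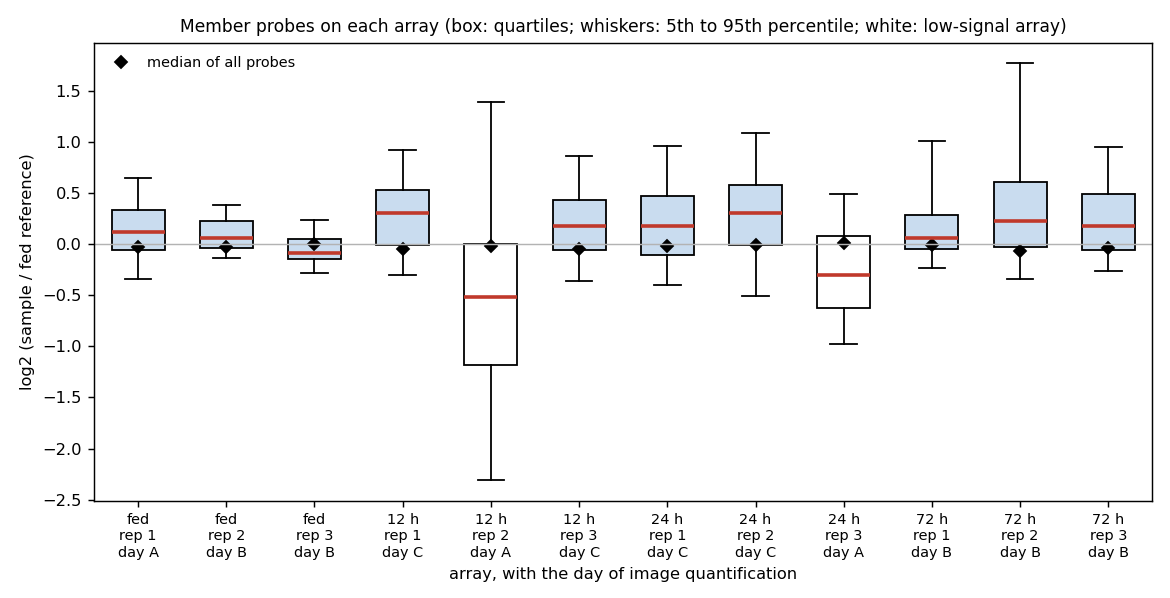
Log2 ratio of sample to fed reference for the splicing, RNA-binding and helicase probes on each of the 12 arrays (y axis), with the array and the day of image quantification on the x axis; boxes span the quartiles, whiskers the 5th to 95th percentile, red lines the median and black diamonds the median of all probes. The white boxes, 12 h replicate 2 and 24 h replicate 3, have medians of -0.51 and -0.30, below all other arrays.

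After 12 hours of fasting no probe of these genes passed limma's test at an adjusted p under 0.05 with a change of at least 1.4-fold (0 of 100, with 0.00497% of all 20110 probes passing). At an unadjusted limma p under 0.05 there were 3 of 100, against 3.92% of all probes, and 13 had groups without overlap against 15.6%. The median log2 fold change was -0.05, against -0.0056 for all probes, and 45 probes were above 0 against 49.2%. After 24 hours the test again passed 0 of 100 (0.00497% of all probes), with 2 at an unadjusted p under 0.05 (3.04%) and 5 without overlap (13.6%). The median was 0.03, with 52 probes above 0 (49.5%). With an unadjusted p under 0.01 and a 1.4-fold change there was none at either time (0.656% and 0.641% of all probes). Over all arrays these shares lay near those of all probes or below them. Without the low-signal arrays, 36 of 100 had an unadjusted limma p under 0.05 at 12 hours (21.9% of all probes) and 40 at 24 hours (30.4%). In that setting 40 and 43 were higher without overlap (22.1% and 25.3%), and 18 and 13 lower (27.2% and 24.9%). The fasted arrays then left were quantified on a day without fed arrays.

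After 72 hours 0 of 100 passed as well (0.00996% of all 20081 probes), but the probes lay mostly above fed. There were 67 above 0 against 46.6% of all probes, 16 that were at least 1.4-fold higher against 3.68%, and 2 that were at least 1.4-fold lower against 2.25%, Rbm14 and a Ddx6 probe with a value on only 1 array at 72 hours. The 72 hour arrays with a value lay above all fed arrays with a value for 25 probes (10.7% of all probes) and below them for 8 (13.7%). Among those 8, the Ddx6 probe had 1 array at 72 hours, and a probe each of Rbm12 and Ddx50 had 1 fed array. At an unadjusted p under 0.05 there were 4, all higher, against 1.12% of all probes. The median was 0.07 and that of all probes -0.015. Within the day on which all 72 hour arrays and fed replicates 2 and 3 were quantified, the median was 0.14 over 94 probes (all probes -0.034), with 0 called (0.0208% of all probes) and 29 at an unadjusted p under 0.05 (12.5%).

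The spread between arrays differed between the groups, and its part in the number of calls was not tested. The median SD of these probes was 0.15 in the fed group, 0.65 at 12 hours, 0.44 at 24 hours and 0.15 at 72 hours, compared with 0.15, 0.40, 0.31 and 0.12 over all probes, and the test used one spread for all groups. With both low-signal arrays left out, 3 probes were called at 12 hours (2.59% of all probes), 16 at 24 hours (8.81%) and 6 at 72 hours (0.836%). The median then was 0.19 at 12 hours and 0.19 at 24 hours, while at 72 hours it kept its value of 0.07 because the arrays of that comparison are the same. The 12 and 24 hour arrays that remain were all quantified on the day without fed arrays, so that day and fasting cannot be told apart in those values. With the day as a block instead, the estimates rest on the low-signal arrays and fed replicate 1, and the medians were -0.60 at 12 hours and -0.58 at 24 hours, with 38 and 20 probes called (23.8% and 12.5% of all probes), 35 and 17 of them lower. At 72 hours 0 were called with this block (0.0210%), and from 24 to 72 hours 19 (9.64%). Array weights, which gave the low-signal arrays the smallest weights, called 9, 18 and 13 probes at 12, 24 and 72 hours (9.53%, 10.5% and 4.09% of all probes), 2 from 12 to 24 hours (0.900%) and 6 from 24 to 72 hours (4.26%). The direction at 12 and 24 hours therefore depended on which arrays were used.

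**Figure D2:**
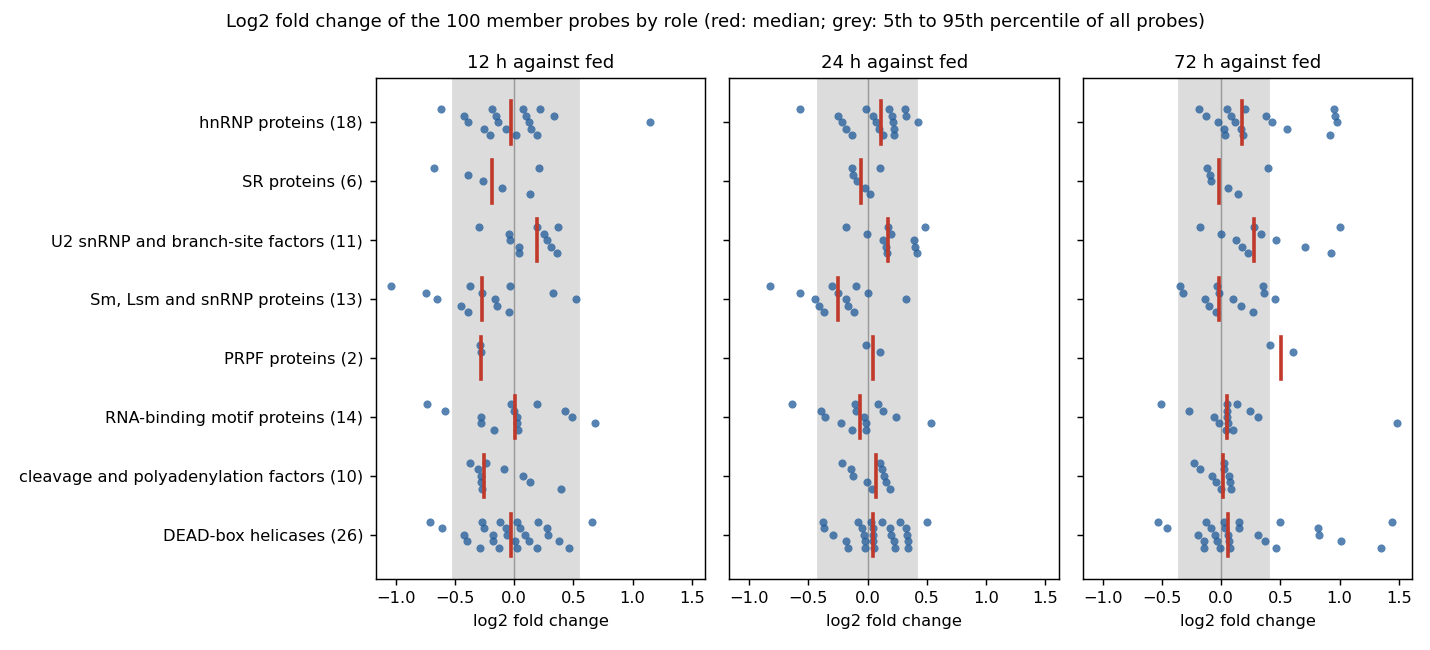
Log2 fold change of each of the 100 probes against fed (x axis) after 12, 24 and 72 hours, grouped by the role of the gene (y axis, with the number of probes); each point is a probe, red lines are medians and the grey band spans the 5th to 95th percentile of all probes. At 72 hours, points of the hnRNP, U2 snRNP and helicase groups lie to the right of the band, and Rbm3 at 1.49 lies farthest out.

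Among the RNA-binding motif proteins (14 probes for Rbm3, Rbm4, Rbm5, Rbm6, Rbm10, Rbm12, Rbm14, Rbms1, Rbms2 and Rbmx), Rbm3 stood first of all 100 probes by p at 72 hours. Rbm3 encodes a glycine-rich RNA-binding protein whose messenger RNA is known to accumulate when cells are cooled. Its log2 ratio was 0.02, 0.07 and -0.15 on the fed arrays, 0.31 and -0.27 on the 12 hour arrays (replicate 2 was marked as an outlier and has no value), -0.32, 0.43 and -0.47 on the 24 hour arrays, and 1.13, 1.96 and 1.31 on the 72 hour arrays. All 3 arrays at 72 hours lay above every other array, and the earlier fasting times overlapped with fed. The level at 72 hours was 2.80-fold that of fed (log2 1.49 ± 0.29, SE), and 3.01-fold that of 24 hours (log2 1.59 ± 0.29). It was the only one of these probes with an unadjusted limma p under 0.01 and a 1.4-fold change, in both comparisons (0.428% and 0.503% of all probes), but the adjusted p was 0.751 against fed and 1.00 against 24 hours. Without the low-signal arrays the same difference from fed had an adjusted limma p of 0.0268 and that from 24 hours, then log2 1.41, one of 0.0427. Within the shared quantification day it was log2 1.51 ± 0.23, with an adjusted limma p of 0.140.

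Rbms1, which binds single-stranded nucleic acids, showed an early pattern over all arrays on one of its probes. At feature 443 the fed arrays read 0.26, -0.05 and -0.16, the 12 hour arrays 0.84, 0.69 and 0.56, the 24 hour arrays 0.66, 1.09 and -0.10, and the 72 hour arrays 0.06, 0.16 and 0.22. Every 12 hour array lay above every fed array, while the 72 hour arrays lay within the fed range. The difference was log2 0.68 ± 0.26 at 12 hours (limma, adjusted p = 0.956) and 0.53 ± 0.26 at 24 hours (adjusted p = 1.00). Without the low-signal arrays the 24 hour difference was 0.86 ± 0.16 (limma, adjusted p = 0.0151). For feature 18263 it was then 0.51 ± 0.14 (limma, adjusted p = 0.0463). The other Rbms1 probe, feature 18263, read -0.19 and -0.08 on the fed arrays that gave a value and 0.31, -1.16 and 0.37 at 12 hours. Rbm10, which acts on exon skipping, had the lowest value of the group at 24 hours (feature 5200, log2 -0.64 ± 0.43), where the arrays read 0.39, -1.20 and -0.99. Rbm14, a coactivator that binds RNA, was 1.42-fold lower than fed at 72 hours at feature 21762 (log2 -0.51 ± 0.62) with no overlap between the groups. Without the low-signal arrays this probe was called lower at 12 hours (log2 -0.91 ± 0.14, limma, adjusted p = 0.016). It was also called lower at 24 hours in that setting (log2 -0.59 ± 0.14, limma, adjusted p = 0.0264).

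For Rbm6 the change from 12 to 24 hours was log2 0.41 ± 0.24, and 0.16 without 12 hour replicate 2. Rbm6 and Rbm5 lie in one family of splicing regulators, and Rbm5 read -1.54 on 24 hour replicate 1 against 0.70 and 0.43 on the other 24 hour arrays, so that 1 array set its mean. The probe at feature 13208 is Rbm14 in one version of the names and Rbm4 in the other. Over the whole group the median log2 fold change was 0.01, -0.07 and 0.05 at 12, 24 and 72 hours, and 0.0025 and 0.06 at the first times without the low-signal arrays.

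Helicases made up the largest group, with 26 probes for 16 genes, namely Ddx3x, Ddx4, Ddx5, Ddx6, Ddx10, Ddx20, Ddx21, Ddx24, Ddx25, Ddx27, Ddx50, the DEAH-box genes Dhx8, Dhx9, Dhx15 and Dhx38, which the array names as Ddx genes, and Ints6, a subunit of the Integrator complex with an older Ddx name. Their median log2 fold change was -0.03, 0.04 and 0.06 at the 3 times, and at 72 hours 6 probes were at least 1.4-fold higher and 1 lower. The medians at 12 and 24 hours were 0.16 and 0.18 without the low-signal arrays.

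Ddx5, a helicase that takes part in splicing and transcription, had 2 probes with nearly the same values. At feature 7174 the fed arrays read 0.15, 0.24 and -0.32, the 12 hour arrays 0.35, -2.30 and 0.76, the 24 hour arrays 0.82, 0.86 and -0.94, and the 72 hour arrays 1.44, 1.95 and 1.01. The 72 hour arrays lay above every other array, and the 2 negative fasted values came from the low-signal arrays. The difference at 72 hours was 2.72-fold (log2 1.44 ± 0.72) at this probe and 2.54-fold (log2 1.35 ± 0.82) at feature 8731, both with an adjusted limma p of 1.00. Without the low-signal arrays the same folds had an adjusted limma p of 0.0204 and 0.0329, and within the shared quantification day, at log2 1.51 and 1.43, one of 0.198 and 0.203.

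Dhx15, the helicase that takes the spliceosome apart after splicing, read -0.16, 0.11 and -0.51 on the fed arrays and 0.66, 1.01 and 0.80 on the 72 hour arrays, which is 2.02-fold (log2 1.01 ± 0.42, limma, adjusted p = 1.00, and adjusted p = 0.0168 without the low-signal arrays). At 12 hours it read 0.47, -0.70 and 0.52 and at 24 hours 0.66, 0.57 and -0.83, so that all arrays outside the low-signal pair lay above the fed arrays. Ddx3x, a helicase of messenger RNA export and translation, had 2 probes with log2 fold changes of 0.82 and 0.83 at 72 hours and SE of 0.79 and 0.77. At 24 hours the first of them had the lowest value of the helicases, log2 -0.38 ± 0.89.

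Ddx21, a nucleolar helicase of ribosomal RNA synthesis, was the only member among the 8 smallest p at all 3 times. At feature 11023 the fed arrays read 0.01, -0.15 and -0.17, the 12 hour arrays 0.20, 0.47 and 0.41, the 24 hour arrays 0.51, 0.53 and 0.14, and the 72 hour arrays 0.44, 0.51 and 0.13. Each of the 9 fasted arrays, both low-signal arrays included, lay above each of the 3 fed arrays. The log2 differences were 0.46, 0.50 and 0.46, each ± 0.17, with adjusted limma p of 0.956, 1.00 and 1.00. These 3 comparisons share the fed arrays. Without the low-signal arrays the 24 hour difference was log2 0.62 ± 0.13 (limma, adjusted p = 0.0215), and feature 11023 was called at that time only. The other Ddx21 probe, feature 7406, did not run with it: it read -0.46 and -0.18 in fed liver, 2.71 on the low-signal 12 hour array, 1.38 on the low-signal 24 hour array and between -1.10 and -0.15 on the other fasted arrays.

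Ddx24, a helicase found in the nucleolus, had a log2 difference of 0.33 ± 0.15 at 24 hours without overlap. Ddx10, likewise a helicase of ribosome formation, stood at log2 -0.28 ± 0.16 at 12 hours, and its step from 12 to 24 hours was 0.34 ± 0.16. The 12 hour value was -0.19 without 12 hour replicate 2, and the step was 0.21 without 24 hour replicate 3. Ddx25, a helicase of germ cells, was at log2 -0.71 ± 0.37 at 12 hours, where replicate 2 read -1.72 and the others -0.12 and -0.07; without that array the difference was -0.17. Dhx38, which acts at the second step of splicing, had the largest negative step from 24 to 72 hours by p, at log2 -0.47 ± 0.22 for feature 5094.

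**Figure D3:**
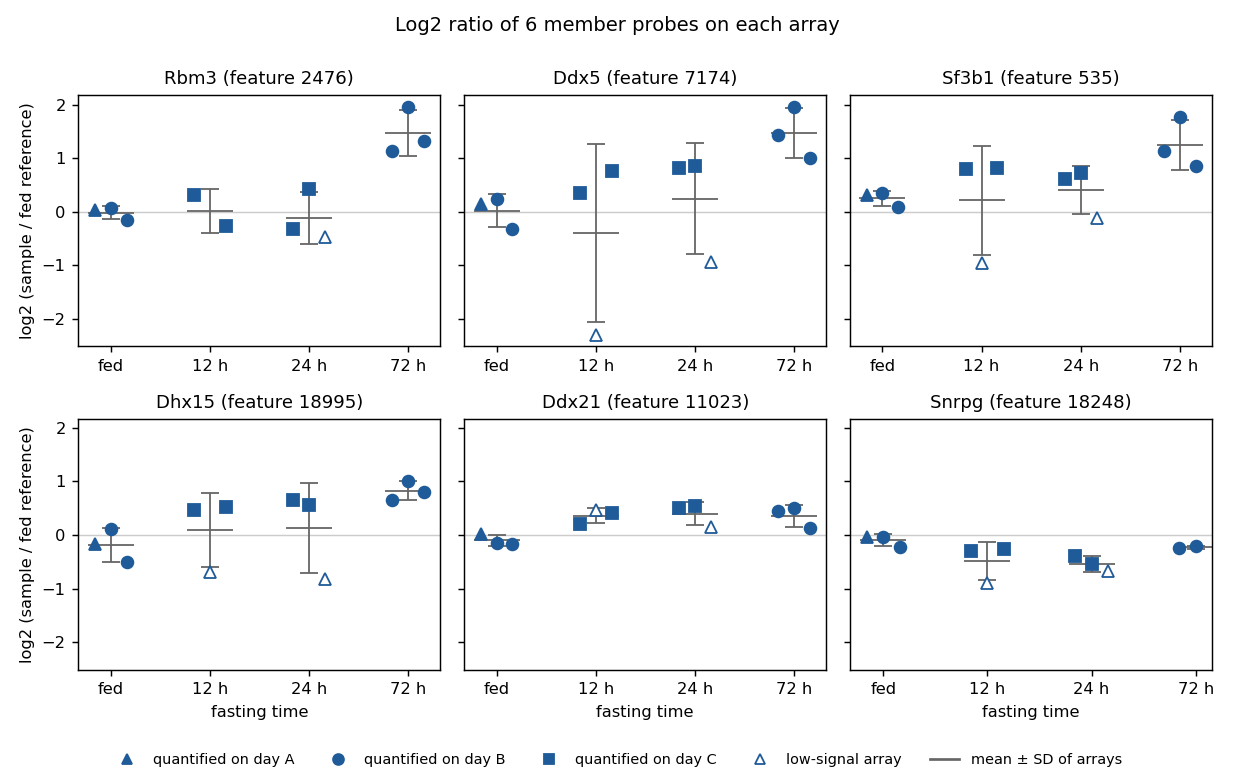
Log2 ratio of sample to fed reference (y axis) by fasting time (x axis) for Rbm3, Ddx5, Sf3b1, Dhx15, Ddx21 and Snrpg; each symbol is an array, its shape the day of image quantification, open triangles the low-signal arrays, and grey lines mean ± SD. The 72 hour arrays of Rbm3 sit between 1.13 and 1.96, all above every other array, whereas the 12 and 24 hour arrays of Ddx5, Sf3b1 and Dhx15 split between the low-signal arrays and the rest.

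The promoters of the other genes called at 72 hours once the low-signal arrays were left out are shown. These genes were not called at that time only. In the same setting, probes of Ddx5 (feature 8731, log2 0.92), Sf3b1 (feature 3983, log2 0.85) and Dhx15 (log2 0.80) were also called higher than fed at 24 hours. The sequences are the 250 bases before the RefSeq start site (GRCm38.p6, minus strand), read 5′ to 3′. Capitals mark any CCAAT or any GC box, which reads GGGCGG. The TATA box was searched as TATAAA and the cAMP response element as TGACGTCA, all on both strands.
Sf3b1, chr1:55027479-55027728: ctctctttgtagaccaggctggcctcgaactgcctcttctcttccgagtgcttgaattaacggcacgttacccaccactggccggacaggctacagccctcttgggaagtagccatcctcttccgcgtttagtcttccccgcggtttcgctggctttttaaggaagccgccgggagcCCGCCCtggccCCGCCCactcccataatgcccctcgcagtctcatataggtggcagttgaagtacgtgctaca
Dhx15, chr5:52190547-52190796: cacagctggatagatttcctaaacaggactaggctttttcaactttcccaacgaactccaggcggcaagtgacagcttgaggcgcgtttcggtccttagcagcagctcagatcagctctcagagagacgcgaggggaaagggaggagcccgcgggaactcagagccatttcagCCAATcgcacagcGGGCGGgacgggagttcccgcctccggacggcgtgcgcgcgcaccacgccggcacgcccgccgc
Ddx5, chr11:106789186-106789435: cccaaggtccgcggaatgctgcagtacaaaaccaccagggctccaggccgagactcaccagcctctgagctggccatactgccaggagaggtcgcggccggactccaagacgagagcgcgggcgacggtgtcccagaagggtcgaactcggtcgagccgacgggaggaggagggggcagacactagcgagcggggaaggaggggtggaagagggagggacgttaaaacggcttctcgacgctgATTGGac

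The Sf3b1 window held 2 GC boxes on the reverse strand, the Dhx15 window 1 CCAAT and 1 GC box, and the Ddx5 window, the outermost of 3 start sites in the table, 1 CCAAT on the reverse strand. None of them held the other motifs. Windows of 60 of the 70 genes were used, Rbm3 not among them. Of their 76 windows, 57.9% held a GC box and 47.4% a CCAAT, compared with 32.7% and 33.8% of all 32851 windows; the TATA box was in 9.21% against 12.4% and the cAMP response element in 2.63% against 1.55%. A match of letters is a description and not a binding site.

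Factors of the branch site (11 probes for Sf3a2, Sf3b1, Sf3b4, U2af1, U2af2, Zrsr1 and Zrsr2) had medians above 0 at all times, 0.19, 0.18 and 0.28, with 8, 9 and 9 of 11 probes above 0. The medians at 12 and 24 hours were 0.33 and 0.42 without the low-signal arrays. Sf3b1, the largest protein of the SF3B complex that holds the branch site, had 4 probes. At feature 535 the fed arrays read 0.31, 0.35 and 0.08, the 12 hour arrays 0.79, -0.97 and 0.81, the 24 hour arrays 0.60, 0.73 and -0.12 and the 72 hour arrays 1.13, 1.77 and 0.86. The fasted values lay above all fed values except on the low-signal arrays. Its difference at 72 hours was 2.01-fold (log2 1.00 ± 0.44) and that of feature 3983 1.90-fold (log2 0.93 ± 0.42), both with an adjusted limma p of 1.00, and of 0.0431 and 0.0407 without the low-signal arrays. The remaining Sf3b1 probes had log2 0.28 and 0.34.

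U2af1, the small subunit of the factor that reads the 3′ splice site, is the member that the list of changed transcripts of the study holds. The fed arrays with a value read 0.37 and 0.16, the 12 hour arrays 0.76, -0.94 and 0.86, the 24 hour arrays 1.24, 1.24 and -0.21, and the 72 hour arrays 0.35, 0.68 and 0.47. Apart from the low-signal array, the 24 hour arrays were the highest of all. The difference at 24 hours was log2 0.49 ± 0.56 (limma, adjusted p = 1.00), and 1.96-fold (log2 0.97 ± 0.14, limma, adjusted p = 0.00762) without the low-signal arrays. Within the day that held 2 arrays each at 12 and 24 hours, 24 hours was higher by log2 0.43 ± 0.12, with an adjusted limma p of 0.939. U2af2, the large subunit, had the lowest value of the group at 24 hours, log2 -0.18 ± 0.42. Of the probe named Sf3a2 in one version of the names, the other version gives Amh, so its identity is uncertain.

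The hnRNP group (18 probes for Hnrnpa1, Hnrnpa2b1, Hnrnpab, Hnrnpc, Hnrnpd, Hnrnpdl, Hnrnph1, Hnrnph2, Hnrnpk, Hnrnpl and Hnrnpu) had medians of -0.03, 0.11 and 0.18, and 15 of 18 probes were above 0 at 72 hours, 5 of them by 1.4-fold or more. Without the low-signal arrays the medians at 12 and 24 hours were 0.40 and 0.40, with 14 and 13 of 18 above 0. Over all probes 9091 of 20130 and 9784 of 20132 were then above 0. Hnrnpk, which binds C-rich RNA, read 0.19, 0.32 and -0.21 on the fed arrays at feature 4853, 1.37 and 1.12 at 12 hours with replicate 2 missing, 1.06, 1.07 and -0.88 at 24 hours, and 0.92, 1.57 and 0.74 at 72 hours. All fasted arrays but the low-signal one at 24 hours lay above fed. Its difference was 2.21-fold at 12 hours (log2 1.14 ± 0.53, limma, adjusted p = 0.956), from 2 arrays, and 1.97-fold at 72 hours (log2 0.98 ± 0.47, limma, adjusted p = 1.00). Without the low-signal arrays the adjusted limma p at 12 hours was 0.0335. The 24 hour difference was then log2 0.96 ± 0.23 (limma, adjusted p = 0.0282). The second Hnrnpk probe, feature 3520, had values of 1.07, 0.43 and 0.37 in fed liver and gave log2 differences of -0.62, -0.57 and 0.20.

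At 72 hours Hnrnpd, which binds AU-rich elements, was at log2 0.92 ± 0.59, its relative Hnrnpdl at 0.95 ± 0.46 from 2 arrays a group, Hnrnpu, a protein of the nuclear matrix, at 0.96 ± 0.57 for feature 9856, and Hnrnpa2b1 at 0.56 ± 0.48. For Hnrnpdl the 72 hour arrays read 1.96 and 0.56, and without the first of them the difference was 0.25. Its step from 24 to 72 hours was 0.88 ± 0.42. The 4 Hnrnpu probes were spread from -0.13 to 0.96 at 72 hours. At 24 hours the extremes of the group were Hnrnpu at feature 9537 (log2 0.43 ± 0.34) and Hnrnpk at feature 3520. Without the low-signal arrays, Hnrnpu probes were called in opposite directions at 24 hours. Features 9537 (log2 0.84, limma, adjusted p = 0.00352) and 9856 (log2 0.79, adjusted p = 0.0499) were higher than fed. Feature 20531 was lower (log2 -0.49, adjusted p = 0.043).

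Proteins of the Sm and Lsm rings and of single snRNPs (13 probes for Snrpa, Snrpa1, Snrpb, Snrpb2, Snrpc, Snrpd1, Snrpd2, Snrpe, Snrpg, Lsm4, Lsm10 and Eftud2) had the lowest medians of the larger groups early on, -0.27 at 12 hours and -0.25 at 24 hours, with 11 of 13 below 0 at both times. At 72 hours the median was -0.02, and all 13 were above their value at 24 hours, against 48.7% of all probes. Without the low-signal arrays these medians were 0.07 and -0.07, and 7 of 13 were above 24 hours at 72 hours (10153 of all 20109 probes).

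Snrpg, the SmG protein of the Sm ring, read -0.03, -0.04 and -0.22 on the fed arrays, -0.30, -0.89 and -0.26 at 12 hours, -0.39, -0.54 and -0.68 at 24 hours, and -0.25 and -0.21 at 72 hours. The 12 and 24 hour arrays all lay below fed. The log2 difference was -0.39 ± 0.19 at 12 hours and -0.44 ± 0.19 at 24 hours (limma, adjusted p = 0.956 and adjusted p = 1.00), and -0.18 and -0.37 without the low-signal arrays. Snrpc, a protein of the U1 snRNP that marks the 5′ splice site, read -0.01, 0.03 and -0.12 on the fed arrays, -0.26, -1.40 and -0.40 at 12 hours, -0.39, -0.56 and -0.85 at 24 hours and -0.28, -0.43 and -0.41 at 72 hours. All 9 fasted arrays lay below the fed arrays, with log2 differences of -0.65 ± 0.26, -0.57 ± 0.26 and -0.34 ± 0.26. The first of these was -0.30 without the low-signal array.

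Snrpd1 had a log2 difference of -0.37 ± 0.19 at 24 hours and one of -0.33 ± 0.19 between 24 and 12 hours. Without 24 hour replicate 3 these were -0.19 and -0.16. Snrpe was the lowest of the group at 24 hours (log2 -0.82 ± 0.74), where replicate 1 read -1.29 and the others 0.14 and -0.61. Snrpa1, a protein of the U2 snRNP, had 2 probes that differed early on. Feature 2115 was at log2 0.33 ± 0.19 at 12 hours and 0.32 ± 0.19 at 24 hours, and feature 18695 at -0.04 ± 0.20 and -0.11 ± 0.20. From 24 to 72 hours the step was 0.04 ± 0.17 for the first and 0.46 ± 0.20 for the second.

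Genes grouped as SR proteins by an Sfrs name on the array had 6 probes, for Srsf2, Srsf3, Srsf4, Srsf9 and Sugp2. Sugp2 is in this group by that name alone. This group and the cleavage and polyadenylation factors (10 probes for Cpsf1, Cpsf2, Cpsf3, Cpsf4, Cstf2, Cstf2t and Nudt21) lay close to fed at 72 hours. Their medians were -0.01 and 0.01, with no probe beyond 1.4-fold. Their widest values at 24 hours were 0.11 for Srsf9 and -0.13 for Sugp2, and 0.19 for Cpsf4 and -0.22 for Cpsf3. The Srsf9 probe carries another gene's name, Gatc, in the other version of the names. Prpf4b and Prpf8, a kinase and the core protein of the spliceosome, were at log2 -0.02 ± 0.71 and 0.10 ± 0.55 at 24 hours and at 0.60 ± 0.71 and 0.41 ± 0.55 at 72 hours, when the arrays of Prpf4b did not overlap with fed.

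Where a gene had several probes, they often differed. Of 24 such genes, all probes had the same sign in 13 at 12 hours, 16 at 24 hours and 11 at 72 hours, and those 11 were all above 0. One of the probes of Ddx20, Ddx50, Rbm12 and Rbm14 had a value on only 1 fed array, replicate 1, which was quantified on another day than the 72 hour arrays. Over the 20 genes with several probes that had at least 2 arrays in both groups, all probes had the same sign in 11, 13 and 11. The median distance between a gene's lowest and highest probe at 72 hours was 0.25 on the log2 scale. Probes ran close for Ddx3x (0.82 and 0.83), Ddx5 (1.35 and 1.44), Snrpa1 (0.35 and 0.36), Zrsr2 (0.13 and 0.18) and Cpsf3 (0.03 and 0.07). Ddx27 (0.08 and 0.37), Dhx9 (0.15 and 0.31), Hnrnph2 (0.12 and 0.38), Rbms1 (0.13 and 0.31), Sf3b1 (0.28 to 1.00) and Hnrnpk (0.20 and 0.98) kept one sign with a wider range. Signs differed for Cpsf2 (-0.23 to 0.0015), Ddx4 (-0.13 and 0.06), Ddx20 (-0.14 and 0.50), Ddx21 (-0.08 and 0.46), Ddx50 (-0.45 and 0.03), Dhx38 (-0.20 and 0.15), Hnrnpab (-0.19 to 0.08), Hnrnpu (-0.13 to 0.96), Ints6 (-0.03 and 0.03), Rbm10 (-0.02 and 0.10), Rbm12 (-0.27 and 0.05), Rbm14 (-0.51 and 0.05) and Sugp2 (-0.10 and 0.14). One of the Ints6 probes is Map1b in the other version of the names.

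**Figure D4:**
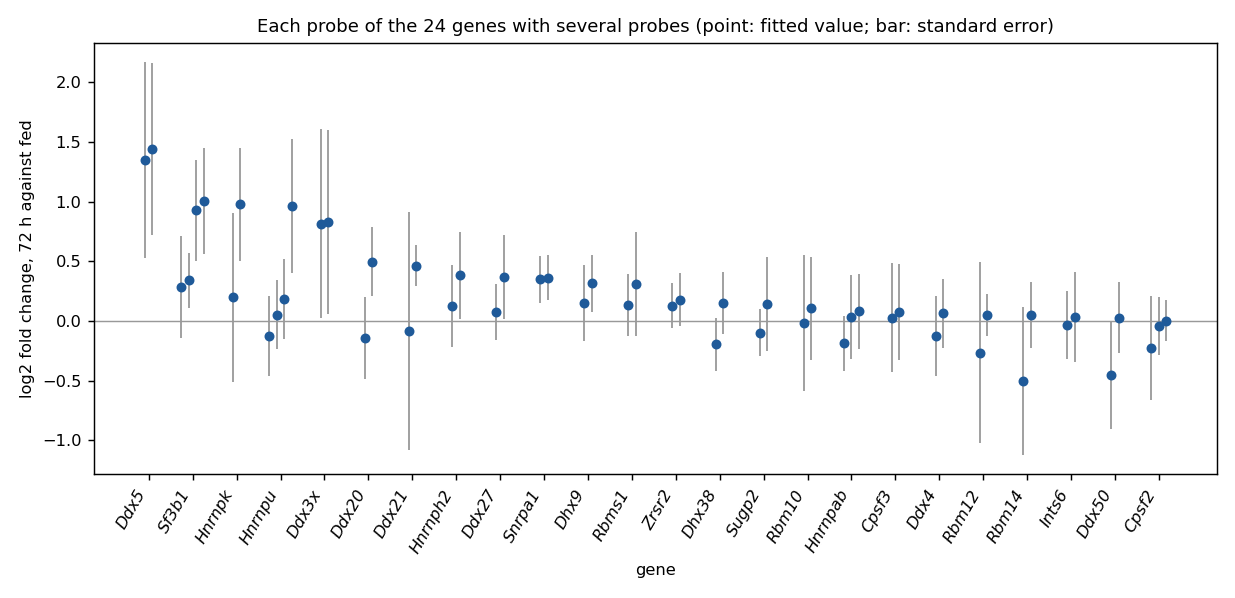
Log2 fold change at 72 hours against fed (y axis) for each probe of the 24 genes with several probes (x axis, ordered by the highest probe); points are fitted values and bars standard errors. Probes of Ddx5 and Ddx3x lie within 0.10 of each other, while those of Hnrnpu reach from -0.13 to 0.96.

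Between fasting times 0 of the 100 probes passed from 12 to 24 hours (0% of all 20116 probes), 0 had an unadjusted limma p under 0.05 (0.945%) and 0 one under 0.01 with a 1.4-fold change (0.0447%). From 24 to 72 hours 0 passed (0% of all 20087 probes) and 2, Rbm3 and Snrpa1, had an unadjusted limma p under 0.05 (3.42%), while 18 probes were at least 1.4-fold higher (4.69%) and 1 lower (4.22%). The medians of the steps were 0.10 and 0.08. Without the low-signal arrays the step from 24 to 72 hours had a median of -0.04, and 3 probes were called (1.30% of all probes), Rbm3 higher and U2af1 and Hnrnpu (feature 9537) lower at 72 hours.

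Other genes of RNA processing whose array names start otherwise were taken from a list of 93. It had 122 probes for 76 genes, of which 0 passed the test in any of the 5 comparisons. Their medians were -0.02, 0.06 and 0.06 at 12, 24 and 72 hours, with 81 of 122 above 0 at 72 hours. The 4 probes with the smallest p at each time are given here, with the other probes of the same gene.

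Son, a protein of nuclear speckles, was among them at each time through feature 2856, with log2 0.74 ± 0.34, 0.77 ± 0.34 and 0.95 ± 0.34. Without 12 hour replicate 1 the first of these was 0.44. The other Son probes were at 0.35, 0.31 and -0.25 (feature 7807) and at 0.02, 0.18 and 0.26 (feature 14113). At 12 hours Tia1, a protein of stress granules, was at 0.49 ± 0.18 for feature 18009 and between -0.10 and 0.19 for its other 3 probes, and 0.31 without the low-signal array. Pnn was at 0.42 ± 0.21 for feature 10305, and 0.24 without that array, and its other probe was at -0.36. Acin1 was at -0.35 ± 0.18 for feature 94, and -0.19 without 12 hour replicate 1, with its other probes at 0.18 and 0.0016.

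At 24 hours 1 array set the values of Smu1, a spliceosome protein, and Nova1, an RNA-binding protein of neurons. Smu1 was at -0.91 ± 0.36, where replicate 1 read -1.34 and the others 0.40 and -0.35, and at -0.45 without it. Nova1 was at -0.71 ± 0.39 for feature 16103, where replicate 1 read -1.57, and at -0.23 without it, with its other probes at -0.09 and -0.04. Ppih was at -0.36 ± 0.18, and at -0.23 without replicate 2. At 72 hours Pcf11, a factor of transcription termination, was at 1.08 ± 0.35 for feature 3541, from 2 arrays, and at 0.46 ± 0.41 for its other probe. Ptbp2, a splicing repressor, was at 0.52 ± 0.19 for feature 8780, at 0.32 without 72 hour replicate 2, and at -0.25 ± 0.24 for its other probe. Syncrip, an hnRNP without the name, was at 0.57 ± 0.22 for feature 1479 and at 0.09 and 0.15 for its others. The adjusted limma p of the 4 leading probes was 0.956 at 12 hours and 1.00 at 24 and 72 hours.

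Of the cell type markers, the 8 probes of macrophages and leukocytes had a median log2 ratio of -0.04 to 0.03 on the fed arrays and of -0.86 to -0.04 on the fasted arrays, lowest on the low-signal 12 hour array. The 7 endothelial and stellate probes had medians of 0.04 to 0.13 on the fed arrays and -0.19 to 0.27 on the fasted arrays, the 5 cholangiocyte probes -0.05 to 0.06 and -0.26 to 0.08, and the 5 hepatocyte probes 0.09 to 0.21 and -0.09 to 0.35. At an unadjusted limma p under 0.05, none of the markers stood apart from fed at 12 hours. At 24 hours 1 hepatocyte and 1 leukocyte probe were lower than fed (1.31% of all probes). At 72 hours 2 hepatocyte probes were lower, with the lowest at log2 -1.35. So was 1 probe each of the leukocyte, the endothelial and stellate, and the cholangiocyte lists (0.428%), while none was higher. The 1 pancreatic acinar probe had no such p. It read -0.91 and 0.31 on the fed arrays with a value and -0.74 to 1.57 on the fasted arrays. The part of these cell types in the values of the splicing and helicase genes was not tested.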

How the data were processed

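Two-colour Agilent 60-mer arrays of liver RNA were analysed, 3 per group (fed, 12, 24 and 72 h fasted). The scanner output holds, per the file headers, median spot and background intensities per channel before normalization. It also holds a log10 ratio that the scanner software background-corrected and dye-normalized. The deposited value table equals that log10 ratio with its sign turned (100% of values within 0.0001, column medians -0.0028 to 0.0060). The authors' normalization and ANOVA results were not used here. Of 21446 spots, 1075 controls and 91 marked retired were dropped once limma's normexp (offset 50) had been applied. The 20280 remaining probes were quantile-normalized over 24 channels, and log2 of Cy3 over Cy5 was taken. Outlier spots became missing values, making up 24.7% of probes for fed replicate 2, 14.1% for fed replicate 3 and 6.29% or less elsewhere. The filter on dim probes asked for a sample channel well above background on every array of any one group. Groups were compared with lmFit and eBayes in limma 3.58.1 (R 4.3.3), with Benjamini-Hochberg adjustment over all probes. A call needed an adjusted p under 0.05 and a 1.4-fold change. The fits were tested on simulated data. The number of arrays and their brightness limit the precision.

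Array names were brought to current symbols by gene number, sequence accession, symbol or synonym in a RefSeq gene table. Members, gene lists and alternatives were chosen with earlier results of these data known. Named are the 8 members with the smallest p in each comparison with fed and the 4 in each step, any called member, genes with several probes, the extremes of each role at 24 h, a member on the study's list of changed transcripts, and the 4 other RNA-processing genes with the smallest p at each time. Some of the genes called without the low-signal arrays, and the values of Rbm5, Rbm14, Ddx6, Hnrnpd, Hnrnpu and Hnrnpa2b1, were added after seeing the values. Other calls in that setting were counted but not described. Among them, Sf3b4 (log2 0.78), Zrsr1 (0.74), Hnrnpc (0.71) and a Dhx9 probe (0.52) were higher than fed at 24 h. The Ddx6 probe was lower than fed at 12 h in that setting (log2 -0.67). Over all arrays its direction was the opposite, with a mean of 0.29 at 12 h, where replicate 2 read 2.39, and -0.09 in fed liver. With the day block it was called higher at 12 h (log2 2.01). Replicate numbers were taken from the labels and, as the correlations between equally numbered arrays ran from -0.59 to 0.58, were not treated as pairs.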

Additional observations from a re-analysis of the deposited data

How the results depend on the processing

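The count of 0 called probes among the 100 held in all 5 comparisons with plain background subtraction, loess, the scanner's log ratio, the sample channel alone, no filter on dim probes, outlier spots kept, the replicate block and each single array left out, and when either version of the names chose the members. With array weights it was 9, 18 and 13 at 12, 24 and 72 h, 2 from 12 to 24 h and 6 from 24 to 72 h. With quantification day as a block it was 38 at 12 h, 20 at 24 h and 19 from 24 to 72 h, and without both low-signal arrays 3, 16 and 6 against fed and 3 from 24 to 72 h. At an unadjusted limma p under 0.01 with a 1.4-fold change it was 1 at 72 h and 1 from 24 to 72 h, Rbm3 both times. The median log2 fold change of the members moved with the day block to -0.60 at 12 h and -0.58 at 24 h. With single arrays left out it ran from -0.26 (without replicate 1) to 0.19 (without replicate 2) at 12 h, from -0.06 (without replicate 2) to 0.19 (without replicate 3) at 24 h, and from 0.05 to 0.13 (without fed replicate 1) at 72 h. With the replicate block it was -0.03, 0.04 and 0.10.

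Of 704 recomputed fold changes of named members, 668 kept their direction and side of the threshold, 26 kept the direction and passed it, and 10 changed sign. With the day block these were Hnrnpk at 12 h (-0.89) and Rbms1 at 24 h (-0.036), and with array weights Rbm10 at 24 h (0.0094). With the sample channel alone they were Ddx24 at 24 h (-0.26), Rbm10 at 24 h (0.0018), from 12 to 24 h Ddx10 (-0.15), Ddx24 (-0.064) and Snrpd1 (0.18), and from 24 to 72 h Snrpa1 (-0.21) and Dhx38 (0.65). The cause was not tested. The numbers of the replicates name pools and nothing ties equal numbers across groups. Counts in the other RNA-processing list moved in 12 cases, under the same 3 settings. With 3 pools a group and a signal 3.50 to 10.6 times background, differences within the spread of the 12 and 24 h groups were not detectable.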
